A study of Mus musculus with 12 samples.

Results

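Expression of 10 genes was described in mouse embryonic fibroblasts with and without the long noncoding RNA lincRNA-p21. The genes are NT5E, ENPP2, GJB2, ITIH2, MECOM, C1QTNF3, TFPI, SDC4, LRRC15 and MEGF10, in capitals as the deposited tables spell them (plots use mouse style). All 10 were found by symbol among the 11481 genes listed in either of 2 tables, 9 of them in the table of mock-treated cells and 10 in that of doxorubicin-treated cells. ENPP2 was listed after doxorubicin only. The genes were chosen because a difference between knockout (KO) and wild type (WT) had been noted for them in at least 1 treatment. The measured KO and WT values therefore picked them, and those values are given below as a description without a test.

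The fibroblasts were primary cultures on a hybrid 129/B6 background, either wild type (lincRNA-p21+/+) or lincRNA-p21-/-. Each genotype was mock treated or given doxorubicin, an anthracycline that damages DNA and activates p53, for 24 h at a dose the labels state as 0.5 mM, a unit that is in doubt because micromolar doses are more usual. Each of the 4 combinations of genotype and treatment was sequenced in 3 libraries, described as biological replicates. The labels do not say from how many embryos or litters the cultures were derived, and lincRNA-p21 itself was not analysed here.

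Most of the 10 genes encode proteins that act outside the cell or at its surface. NT5E encodes CD73, an ectoenzyme that turns extracellular AMP into adenosine. ENPP2 encodes autotaxin, a secreted enzyme that makes the lipid mediator lysophosphatidic acid. GJB2 encodes connexin 26, a subunit of gap junction channels, and SDC4 encodes syndecan-4, a heparan sulfate proteoglycan of focal adhesions. ITIH2 encodes a heavy chain of the inter-alpha-trypsin inhibitor, which is transferred onto hyaluronan in the matrix. C1QTNF3 encodes a secreted protein with a C1q domain, and TFPI encodes the inhibitor that blocks tissue factor and factor Xa at the start of coagulation. LRRC15 encodes a leucine-rich repeat membrane protein, and MEGF10 a membrane receptor with EGF-like repeats that takes part in engulfment of dying cells. MECOM is the exception to the description as secreted or surface genes, since it encodes the zinc finger transcription factor EVI1, a nuclear protein.

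Promoter sequences are shown for NT5E and GJB2, the pair of genes with the largest positive KO minus WT differences in mock cells, and for C1QTNF3, the gene with the largest negative one. Promoters from RefSeq on GRCm38.p6, looked up by symbol, were used for 8 of the 10 genes, 10 promoters in all. That a gene was left out does not mean that it has no annotated promoter. The submitters' notes name another build, NCBIM37, so these positions do not refer to the authors' files. Each sequence is the 250 bases before the annotated start, 5′ to 3′ on the strand of the gene, and capitals mark the searched motifs. The motifs, searched on both strands with overlaps counted, were the AP-1 site TGANTCA, the GC box GGGCGG, the CCAAT box CCAAT, the TATA box TATAAA and the E-box CACGTG.
NT5E, chr9:88327359-88327608, plus strand: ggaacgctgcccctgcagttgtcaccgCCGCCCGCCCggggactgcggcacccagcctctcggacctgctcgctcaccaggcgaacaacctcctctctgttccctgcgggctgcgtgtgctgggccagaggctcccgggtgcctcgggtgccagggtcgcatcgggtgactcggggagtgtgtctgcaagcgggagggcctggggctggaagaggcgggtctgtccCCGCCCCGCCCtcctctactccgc
GJB2, chr14:57104703-57104952, minus strand: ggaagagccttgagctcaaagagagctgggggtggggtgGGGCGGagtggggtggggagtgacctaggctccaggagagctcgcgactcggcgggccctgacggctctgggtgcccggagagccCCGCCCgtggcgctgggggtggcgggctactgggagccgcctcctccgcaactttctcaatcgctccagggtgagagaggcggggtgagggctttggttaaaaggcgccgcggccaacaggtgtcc
C1QTNF3, chr15:10952082-10952331, plus strand: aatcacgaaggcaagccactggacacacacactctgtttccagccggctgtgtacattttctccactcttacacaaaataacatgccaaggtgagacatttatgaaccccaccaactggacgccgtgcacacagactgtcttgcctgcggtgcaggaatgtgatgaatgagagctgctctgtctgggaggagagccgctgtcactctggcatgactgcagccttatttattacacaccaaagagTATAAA

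The 3 promoters differed in base composition. That of NT5E held 21 CpG dinucleotides and 4 GC boxes, a pair of overlapping matches near each end of the stretch, and that of GJB2 held 18 CpG and 2 GC boxes. The promoter of C1QTNF3 held 6 CpG, the median over 32851 promoters, no GC box and 1 TATA box in the last bases before the annotated start. A GC box was present in 32.7% of all promoters of this length, and a TATA box in 12.4%. Over the 10 promoters, which leave out ENPP2 and MEGF10, CpG ranged from 1 (ITIH2) to 21 (NT5E), so base composition was not shared among them. SDC4 had 4 GC boxes, and ITIH2 and LRRC15 had 1 AP-1 site each, a motif found in 6.75% of promoters. GC boxes were also found in the promoter of LRRC15 (1), in each TFPI promoter (1) and in 1 MECOM promoter (2). A TATA box was also found in 1 TFPI promoter. No E-box was found in any of the 10 promoters. A match is a run of letters and does not show that a factor binds there.

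Libraries held 14327048 to 20511907 reads, recovered from the deposited CPM values (gene counts scaled to a common library total). The lowest library values of the described genes rested on 39 reads for GJB2 (exact Poisson 95% interval 27.7 to 53.3) and 44 reads for NT5E (32.0 to 59.1), and those of the other 8 on 88 reads or more; the intervals cover counting error only. Fibroblast markers were in place, with 11 of 12 listed in both tables and LUM the exception. All 10 smooth muscle markers were listed too, against 6 of 10 of cartilage and bone, 3 of 9 neural, 4 of 12 epithelial, 2 of 10 skeletal muscle and 2 of 12 macrophage and blood markers after doxorubicin. Endothelial markers were listed for 4 of 12 and adipocyte markers for 3 of 8 after doxorubicin. Of other cell types, PECAM1, CDH5, PTPRC, EPCAM and CDH1 were not listed in either table. From the same lists KDR, ENG, FLT1, KRT18, KRT19, ESRP2 and CD68 were listed in both. Every listed gene had over 2 CPM in all WT libraries, which was not so for KO: 164 genes in mock and 313 after doxorubicin had 2 CPM or less in some KO library. In bulk RNA, fewer cells of a type and less RNA per cell cannot be told apart.

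Of the 9 genes listed in mock cells, 5 were higher in KO than in WT by their means and 4 were lower. Among all 10648 genes in mock, 7094 were higher in KO. The KO and WT ranges were separate for 8 of them, 5 with KO above and 3 with KO below. Separate ranges were found for 9.98% of all 10648 genes in mock (8.25% with KO above and 1.74% with KO below), and nothing is read from this contrast because the genes were picked by it. NT5E was at 10.7, 8.77 and 2.72 CPM in WT mock replicates 1 to 3 and at 30.6, 37.4 and 14.2 CPM in the KO. The lowest KO library lay above the highest WT library, and replicate 3 was the lowest in both genotypes. Its mean was 3.69 times higher in KO, a KO minus WT difference of 1.81 on the log2(CPM + 1) scale (SE 0.52, n = 3 each), and the ratio within replicate numbers ran from 2.84 to 5.22. Differences on this scale understate the change of low genes.

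After doxorubicin replicate 3 was again the lowest library of each genotype for the CD73 gene. NT5E was at 12.7, 19.7 and 2.45 CPM in WT doxorubicin and at 27.3, 39.2 and 20.4 CPM in KO doxorubicin, so that the KO library of replicate 3 was only slightly above the highest WT library. The difference was 1.55 (SE 0.62), with ratios of 2.15, 1.99 and 8.33 in the 3 replicate numbers. Without WT doxorubicin replicate 3, the lowest library, it was 0.78. Replicate 3 thus had the lowest level in every group and the largest ratio in both treatments.

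ENPP2 was at 10.0, 7.70 and 15.3 CPM in WT doxorubicin and at 70.1, 44.4 and 82.8 CPM in KO doxorubicin. Its mean was 5.98 times higher in KO, which was the largest ratio of means among the described genes in either treatment. The difference on the log2 scale was 2.48 (SE 0.30), and the ratios by replicate number were 7.01, 5.76 and 5.41. No mock value of the autotaxin gene was analysed here, so its response to the drug is not given.

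GJB2 was at 4.68, 13.7 and 5.96 CPM in WT mock cells and at 24.0, 46.4 and 16.4 CPM in KO mock cells. Replicate 2 was the highest library in each genotype, and the lowest KO library was above the highest WT library. The connexin 26 gene was 3.56 times higher in KO by the means, a log2 difference of 1.72 (SE 0.48). After doxorubicin its values were 2.71, 6.68 and 5.57 CPM in WT libraries and 5.95, 12.0 and 20.2 CPM in KO. There the groups overlapped through KO replicate 1, and the log2 difference was 1.12 (SE 0.44), or 0.73 without KO doxorubicin replicate 3.

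**Figure D1:**
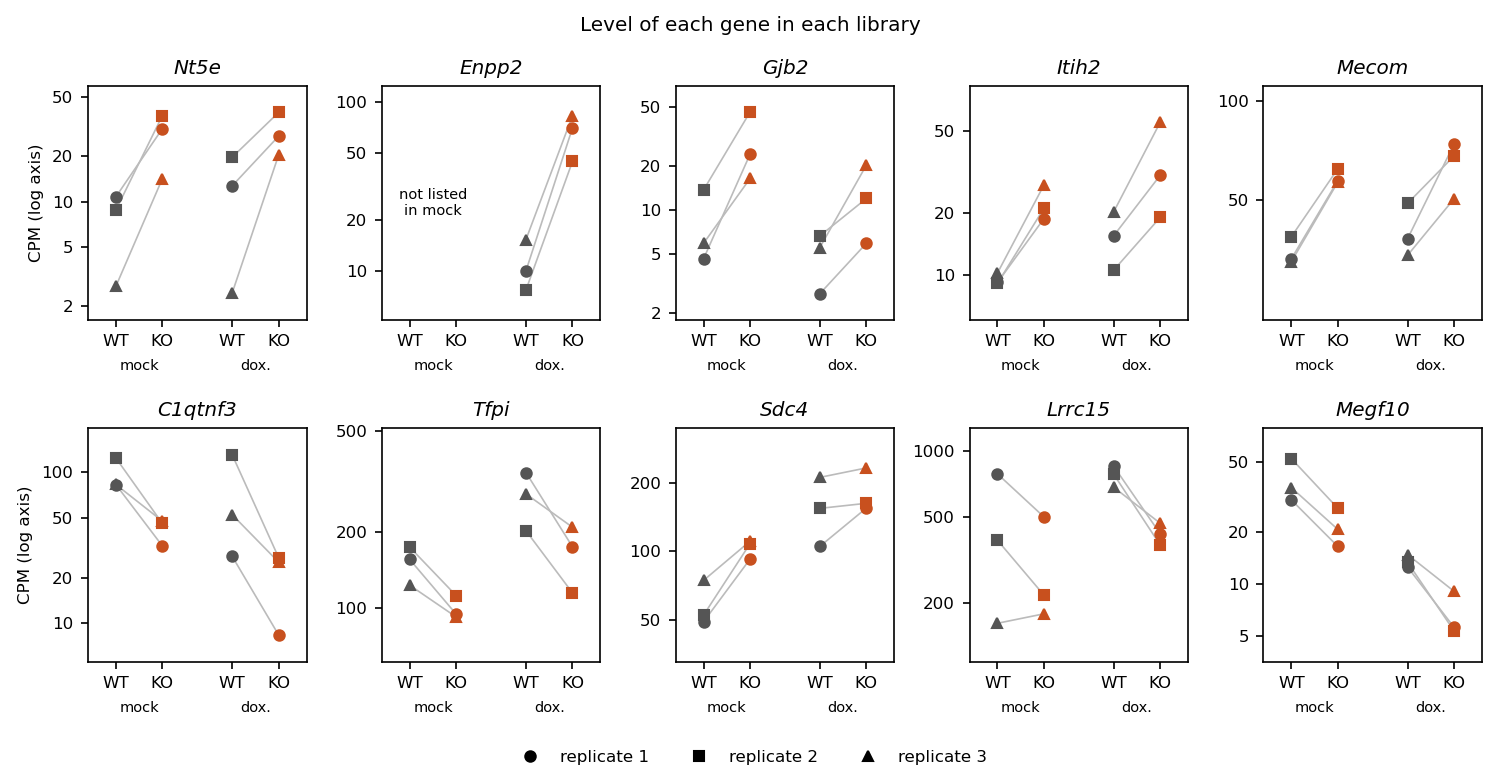
CPM (log axis) of each gene in every library, by genotype within mock and doxorubicin (dox.), with grey lines joining WT and KO libraries of the same replicate number. NT5E, ENPP2, GJB2, ITIH2, MECOM and SDC4 lie higher in KO by their means and C1QTNF3, TFPI, LRRC15 and MEGF10 lower, and the groups overlap after doxorubicin for GJB2, ITIH2, TFPI and SDC4 and in mock for LRRC15.

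ITIH2 was even among WT mock libraries, at 9.21, 9.12 and 10.2 CPM, and stood at 18.8, 21.2 and 27.5 CPM in KO mock cells. The groups were separate, with a log2 difference of 1.14 (SE 0.16). After doxorubicin the libraries spread, to 15.5, 10.6 and 20.3 CPM in WT libraries and 30.6, 19.1 and 55.4 CPM in KO. KO replicate 2 then lay within the WT range, while each KO library stayed above the WT library of its own number by a ratio of 1.81 to 2.73. The log2 difference was 1.04 (SE 0.39), and 0.66 without KO doxorubicin replicate 3, the highest library.

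SDC4 was at 49.0, 52.4 and 74.5 CPM in WT mock cells and 92.6, 108 and 111 CPM in KO mock cells, with separate groups and a log2 difference of 0.84 (SE 0.17). After doxorubicin the syndecan-4 gene was at 105, 155 and 212 CPM in WT libraries and 155, 163 and 233 CPM in KO. The groups then overlapped widely, and the difference was 0.26 (SE 0.27). Without WT doxorubicin replicate 1, the lowest library, it was -0.0032, so the sign of the difference of group means rests on that library. Within replicate numbers 1 to 3 the differences after doxorubicin were 0.56, 0.07 and 0.14, all positive.

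MECOM had the smallest SEs of the genes higher in KO in both treatments. It was at 33.2, 38.8 and 32.6 CPM in WT mock and 57.4, 62.4 and 56.9 CPM in KO mock cells, a log2 difference of 0.74 (SE 0.10). In doxorubicin-treated cells the EVI1 gene was at 38.2, 49.0 and 34.1 CPM in WT libraries and 74.2, 68.3 and 50.6 CPM in KO, where KO replicate 3 was only just above WT replicate 2. That difference was 0.66 (SE 0.20).

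C1QTNF3 was the gene with the largest negative difference in both treatments. In WT mock cells it was at 82.6, 124 and 82.7 CPM, and in KO mock cells at 32.5, 45.7 and 47.4 CPM. The groups were separate, the mean was 2.30 times higher in WT, and the KO minus WT difference was -1.18 (SE 0.21). After doxorubicin it was at 27.8, 130 and 52.3 CPM in WT libraries and 8.38, 27.2 and 25.4 CPM in KO, a difference of -1.62 (SE 0.61) that was -1.03 without WT doxorubicin replicate 2, the highest library. Separation there was by a narrow margin, between WT replicate 1 and KO replicate 2, whereas within replicate numbers the KO library held 0.209 to 0.486 of the WT level.

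TFPI was at 156, 174 and 123 CPM in WT mock and 94.5, 112 and 92.1 CPM in KO mock cells. The difference for this coagulation inhibitor was -0.59 (SE 0.15), with separate groups. After doxorubicin the WT libraries were at 343, 202 and 282 CPM and those of KO at 174, 115 and 209 CPM. KO replicate 3 was then above WT replicate 2, and the difference was -0.74 (SE 0.26).

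MEGF10 was at 30.4, 52.6 and 35.8 CPM in WT mock cells and at 16.4, 27.2 and 20.6 CPM in KO mock cells. No KO library reached a WT library, and the ratio of KO to WT was between 0.518 and 0.575 in all 3 replicate numbers, the narrowest range of ratios among the genes lower in KO in mock. After doxorubicin the engulfment receptor gene was at 12.5, 13.3 and 14.8 CPM in WT libraries and 5.63, 5.37 and 9.07 CPM in KO. The differences were -0.85 (SE 0.25) in mock and -0.95 (SE 0.23) after doxorubicin.

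LRRC15 varied more between mock libraries than between genotypes. WT mock replicates 1 to 3 were at 788, 390 and 162 CPM, and those of KO at 500, 218 and 179 CPM. Replicate 3 was the one same-numbered pair in which a described gene lay against its direction in the other pairs, and the log2 difference of -0.45 had an SE of 0.63. Without WT mock replicate 1 the difference was 0.10. After doxorubicin the libraries were close together, at 854, 785 and 684 CPM in WT libraries and 418, 371 and 467 CPM in KO. Those groups were separate, with the mean 1.85 times higher in WT and a difference of -0.89 (SE 0.14).

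**Figure D2:**
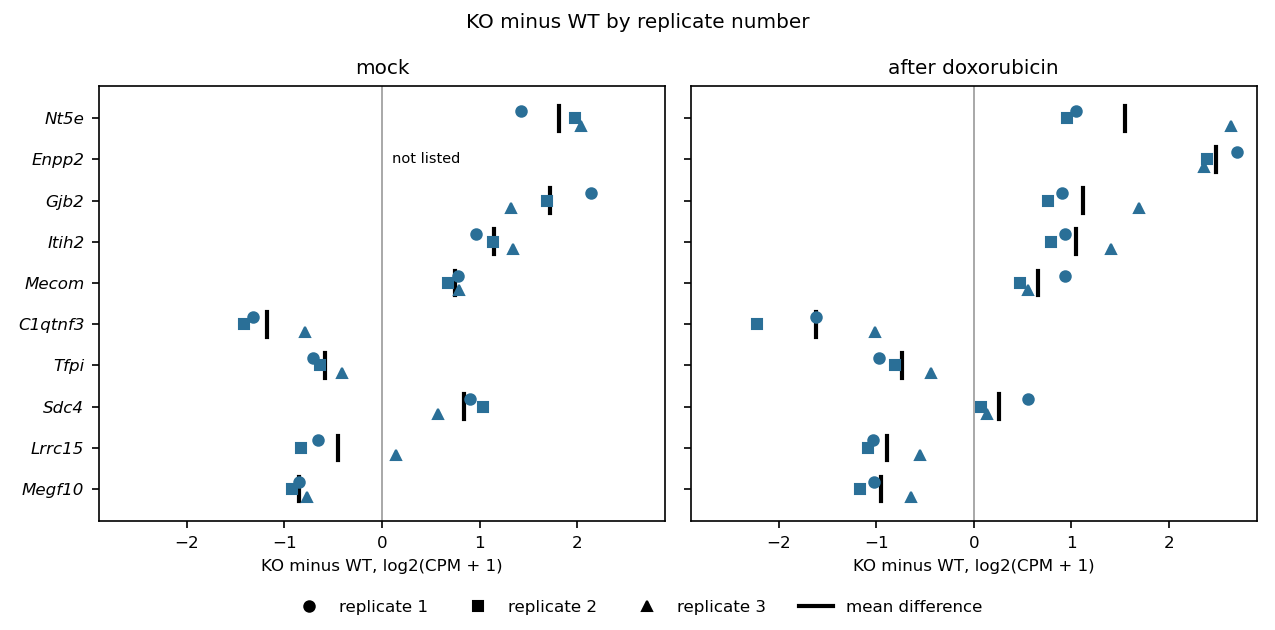
KO minus WT on the log2(CPM + 1) scale for each gene in mock (left) and after doxorubicin (right), with a marker for each replicate number and a bar at the mean difference. All 3 numbers fall on the same side of 0 for 8 of 9 genes in mock, LRRC15 being the exception, and for all 10 after doxorubicin. The genes were picked by this contrast, and the share of all genes that did so was not computed.

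After doxorubicin 6 of the 10 genes had separate KO and WT ranges, 3 in each direction, where 16.3% of all 11125 genes did (9.7% with KO above and 6.64% with KO below). By replicate number all 10 lay on the same side in the 3 pairs, and the pair closest to 0 was replicate 2 of SDC4 (0.07). The share of all genes that did so was not computed, and nothing is read from this count because the contrast picked the genes. Same-numbered WT and KO libraries deviated together from their group means across all genes (correlations of 0.710 to 0.855 in mock and 0.67 to 0.80 after doxorubicin). For the described genes, blocking on replicate number gave the same differences with SEs of 0.06 to 0.19 in mock, against 0.10 to 0.63 without it. After doxorubicin the SEs were 0.10 to 0.31 with the block and 0.14 to 0.62 without it.

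How much of the variation within groups followed the replicate number, averaged over both treatments, differed between the genes. It was 82.6% for NT5E and 79.6% for SDC4, on the log2(CPM + 1) scale over 12 libraries, but 13.6% for TFPI. TFPI replicate 2 was the highest mock library and the lowest doxorubicin library of each genotype, so this average can miss pairing within a treatment. Within treatments the block lowered the SE of TFPI from 0.15 to 0.07 in mock and from 0.26 to 0.11 after doxorubicin. The median share of the 9 genes in both tables was 62.5%, close to the 61.0% of all 10292 genes in both tables. Replicate 3 was 0.94 below the group means for NT5E and 0.33 above them for SDC4 and 0.40 above for ITIH2. Replicate 1 was 0.65 below for C1QTNF3 and 0.54 below for GJB2, but 0.53 above for LRRC15, so no single replicate was low for every gene.

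The response to doxorubicin was tested as the average of both genotypes, a contrast that is orthogonal to KO against WT and so was not used to choose the genes. Of 9 genes in both tables, 4 passed limma's test with Benjamini-Hochberg adjustment at 0.05, 2 higher and 2 lower. Among all 10292 genes 58.1% passed, 3216 higher (31.2%) and 2761 lower (26.8%), or 2656 and 3486 with median centring. With the replicate block 7 passed, 4 higher and 3 lower, where 70.8% of all genes did (37.5% higher and 33.4% lower). The median size of the 9 differences was 0.84, against 0.38 for all genes, and whether the described genes differ from the table was not tested.

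MEGF10 showed the largest response and SDC4 the next. MEGF10 fell from a mean of 30.5 CPM in the 6 mock libraries to 10.1 CPM in the 6 doxorubicin libraries, a log2 difference of -1.50 (SE 0.17, limma adjusted p = 3.34e-05). It was lower in 6 of 6 same-numbered comparisons of doxorubicin with mock. SDC4 rose from 81.3 to 171 CPM (log2 difference 1.09, SE 0.18, limma adjusted p = 0.000314), and was higher in 6 of 6 comparisons.

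TFPI rose from 125 to 221 CPM, by 0.77 on the log2 scale (SE 0.17, limma adjusted p = 0.00215), again in 6 of 6 comparisons. Replicate 2 contributed little in either genotype, at 0.21 in WT and 0.04 in KO. C1QTNF3 fell from 69.1 to 45.2 CPM, with a log2 difference of -0.93 (SE 0.37, limma adjusted p = 0.0480, and 0.00334 with the block). It was lower in 5 of 6 comparisons, WT replicate 2 being at 0.07. This call was narrow: leaving out any 1 of 9 of the 12 libraries brought the adjusted p above 0.05, to at most 0.108.

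The other 5 genes did not pass without the block. GJB2 had means of 18.5 CPM in mock and 8.85 CPM after doxorubicin (log2 difference -0.84, SE 0.35, limma adjusted p = 0.0600), and passed with the block (0.0108). Its KO replicates 1 and 2 were at -1.85 and -1.87 and KO replicate 3 at 0.28. LRRC15 had means of 373 and 596 CPM (0.85, SE 0.34, limma adjusted p = 0.0541, and 0.0123 with the block), with comparisons from -0.26 in KO replicate 1 to 2.07 in WT replicate 3, and a difference of 0.55 without WT mock replicate 3. ITIH2 had means of 16.0 and 25.3 CPM (0.55, SE 0.23, limma adjusted p = 0.0602, and 0.00721 with the block), and its difference was 0.36 without KO doxorubicin replicate 3. Each of these 3 genes also passed without the block when certain single libraries were left out: GJB2 without replicate 3 of KO mock or of KO doxorubicin, or without replicate 1 of WT mock (limma adjusted p from 0.0288 to 0.0450), LRRC15 without WT or KO mock replicate 1 (0.00733 and 0.0178), and ITIH2 without WT or KO doxorubicin replicate 2 (0.0319 and 0.00998).

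NT5E and MECOM passed neither without nor with the block of all 3 replicate numbers. NT5E had means of 17.4 and 20.3 CPM (0.27, SE 0.45, limma adjusted p = 0.636, and 0.261 with the block), higher after doxorubicin in 4 of 6 comparisons. Its difference ran from 0.0013 without WT doxorubicin replicate 2 to 0.65 without WT doxorubicin replicate 3, and leaving out any 1 of 8 of the 12 libraries moved it by over 1.5 times. MECOM had means of 46.9 and 52.4 CPM (0.15, SE 0.12, limma adjusted p = 0.280, and 0.116 with the block), higher in 5 of 6. Leaving out 1 library gave 0.08 (WT doxorubicin replicate 2) to 0.23 (KO doxorubicin replicate 3), and 0.10 without KO doxorubicin replicate 1. In the blocked fit without replicate 3 MECOM was called higher (0.25, limma adjusted p = 0.0404).

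**Figure D3:**
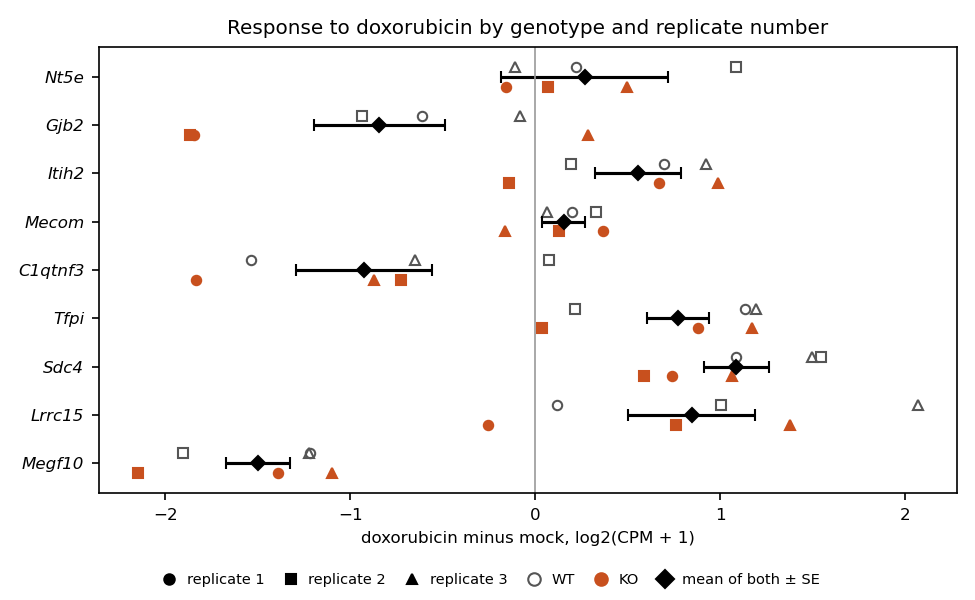
Doxorubicin minus mock on the log2(CPM + 1) scale for the 9 genes in both tables, with open markers for WT, filled markers for KO, marker shapes for replicate numbers, and a diamond for the average of both genotypes with its SE from limma. MEGF10 lies below 0 and SDC4 and TFPI lie above 0 in all 6 comparisons.

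Set side by side, the responses of the 2 genotypes had the same sign for all 9 genes by their means, and they are given without a test because their difference uses the contrast that picked the genes. SDC4 was at 1.38 in WT and 0.80 in KO, and GJB2 at -0.55 in WT and -1.14 in KO. LRRC15 was at 1.06 and 0.63, and C1QTNF3 at -0.71 and -1.15. MEGF10 differed least relative to its size, at -1.45 in WT and -1.55 in KO.

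Levels of the described genes were related to one another over the 12 libraries, which share the group differences that picked them. NT5E and MECOM had the highest Pearson correlation (r = 0.86), which was 0.65 for deviations from the group means. SDC4 and MEGF10 had the lowest (r = -0.79), but their deviations from group means correlated at 0.44. ITIH2 and MECOM, both higher in KO, had r = 0.57 over the libraries and -0.78 for the deviations. The 2 measures thus differed in sign for some pairs of genes.

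For each of the 9 genes the 2 genes most like it were found among 10292, by Pearson correlation of log2(CPM + 1) over 12 libraries. MEGF10 was most like GPR149 and GPR116, both at 0.97, and SDC4 most like FOXO1 (0.97) and DUSP7 (0.96). MECOM was most like TBX4, a hindlimb transcription factor gene (0.92), and TRMT6 (0.92), and ITIH2 most like LYPLA1 (0.90) and HOXD13, a limb patterning gene (0.87). Both limb genes were themselves higher in KO, TBX4 by 1.68 in mock and 1.51 after doxorubicin and HOXD13 by 1.52 and 1.22 (log2 differences, given without a test). TRMT6 (0.24 and 0.19) and LYPLA1 (0.15 and 0.16) were higher in KO too. MECOM and ITIH2 were picked by KO against WT, so genes most like them over these libraries can follow the same contrast. The part of limb position in the values of the described genes was not tested. LRRC15 was most like DES, the desmin gene (0.92), and IFI203 (0.90), and TFPI most like PPP1R14A (0.93) and A430105I19RIK (0.89). C1QTNF3 was most like QPCT (0.93) and AC101915.2 (0.93). NT5E had DDX52 (0.91) and MRPS9 (0.90), and GJB2 had BZW2 (0.86) and ARHGAP32 (0.84). Picking the top of so many correlations yields high values, so they are a description of these libraries.

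Genes of related families were read from 10 lists, one for each described gene and without it, with 320 entries in all. KO against WT in these lists was called by limma for 0 of 175 measured genes in mock and 0 of 193 after doxorubicin without the block, where 0% of all genes were called (440 of 10648 and 1246 of 11125 had an unadjusted p under 0.05). With the block 2 rose and 1 fell in mock, against 0.92% of all genes called (0.563% higher and 0.357% lower). After doxorubicin 33 rose and 29 fell with the block, 32.1% of those measured, where 25.3% of all genes were called (11.8% higher and 13.6% lower). The blocked calls depend on the pairs: without pair 1, 2 or 3 they numbered 0, 0 and 64 in mock and 24, 58 and 47 after doxorubicin. For these lists, genes said to have risen or fallen between genotypes are calls of the blocked limma fit over all genes, none of which was made without the block.

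Around GJB2, 4 of 8 measured genes of gap junctions rose and 1 fell after doxorubicin, with a median KO minus WT difference of 0.35 against 0.03 for all genes. GJB5, a connexin gene, rose by 0.63, and GJA1, which encodes connexin 43 and was named after its values were seen, rose by 0.36. PANX1, a pannexin channel gene, fell by 0.64. In mock 0 of 6 were called in either direction.

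Around ENPP2, genes that make, sense, transport or remove lysophospholipids were measured in 18 cases. Of these, 5 rose and 3 fell after doxorubicin, with a median of 0.26 over the list. LPAR1, which encodes a receptor for lysophosphatidic acid, was at 21.9 ± 3.21 CPM in WT libraries and 37.3 ± 7.74 CPM in KO (difference 0.73, limma adjusted p = 0.00735 with the block). SPNS2, a sphingosine-1-phosphate transporter gene, fell by 0.82, the lipase gene LIPH by 0.72 and the receptor gene S1PR3 by 0.66. In mock 0 of 15 were called.

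Around NT5E, 2 of 21 genes of nucleotide and adenosine handling rose and 4 fell after doxorubicin. ENPP1, an ectoenzyme gene that makes AMP from ATP, rose by 0.68, whereas the nucleotide receptor gene P2RY1 fell by 1.05 and the ecto-nucleotidase family gene ENTPD5 fell by 0.64. PANX1, also on this list, is given above. In mock 0 of 20 were called.

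Coagulation genes beside TFPI gave 1 that rose and 2 that fell among 17 after doxorubicin. TFPI2, a related inhibitor gene, fell from 25.2 ± 15.9 to 9.68 ± 5.42 CPM (difference -1.19, limma adjusted p = 0.00736 with the block), and PROCR, the endothelial protein C receptor gene, from 521 ± 195 to 263 ± 126 CPM (difference -1.04, limma adjusted p = 0.0044 with the block). PLAT, the tissue plasminogen activator gene, rose by 0.45. In mock SERPINE2, a protease inhibitor gene, was the 1 of 15 called and rose by 0.59.

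The C1q and TNF related list gave 0 that rose and 5 that fell among 17 after doxorubicin. C1QL1, a secreted C1q family gene, fell by 1.17, C1QL3 by 0.82, the cerebellin gene CBLN2 by 0.76 and C1QTNF2 by 0.68. In mock 1 of 14 was called, FAM132B, which rose by 0.75. Genes of hyaluronan and its binding proteins, around ITIH2, gave 0 that rose and 4 that fell among 13 after doxorubicin, BCAN by 0.95, the hyaluronan synthase gene HAS3 by 0.94, HMMR by 0.75 and the hyaluronidase gene HYAL1 by 0.49, and 0 of 11 were called in mock.

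The remaining lists were mixed after doxorubicin. Among 25 genes of syndecans, glypicans and heparan sulfate, 4 rose and 1 fell: PRKCA rose by 0.41, the heparan sulfate enzyme genes NDST2 and EXT1 each by 0.38, and SDC1, the syndecan-1 gene, fell by 0.29. Among 23 leucine-rich repeat genes 6 rose and 3 fell, with the small proteoglycan gene OGN up by 1.14 and FLRT3 by 0.80, and LRRTM1 down by 1.02 and LINGO1 by 0.87. Engulfment genes gave 3 that rose and 5 that fell among 28. Of these GULP1, an adaptor gene, rose by 0.66, whereas BAI1 fell by 0.99, the receptor kinase gene TYRO3 by 0.63 and XKR8 by 0.37. Regulators related to MECOM gave 8 that rose and 2 that fell among 25. Of these the close relative PRDM16 rose by 0.61 and the corepressor gene CTBP1 by 0.45, and PRDM8 fell by 0.72. In mock, GAS6, a ligand of the engulfment receptor kinases, fell by 0.51 as the 1 of 27 engulfment genes called, and 0 of 23, 0 of 22 and 0 of 24 were called in the other 3 lists.

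**Figure D4:**
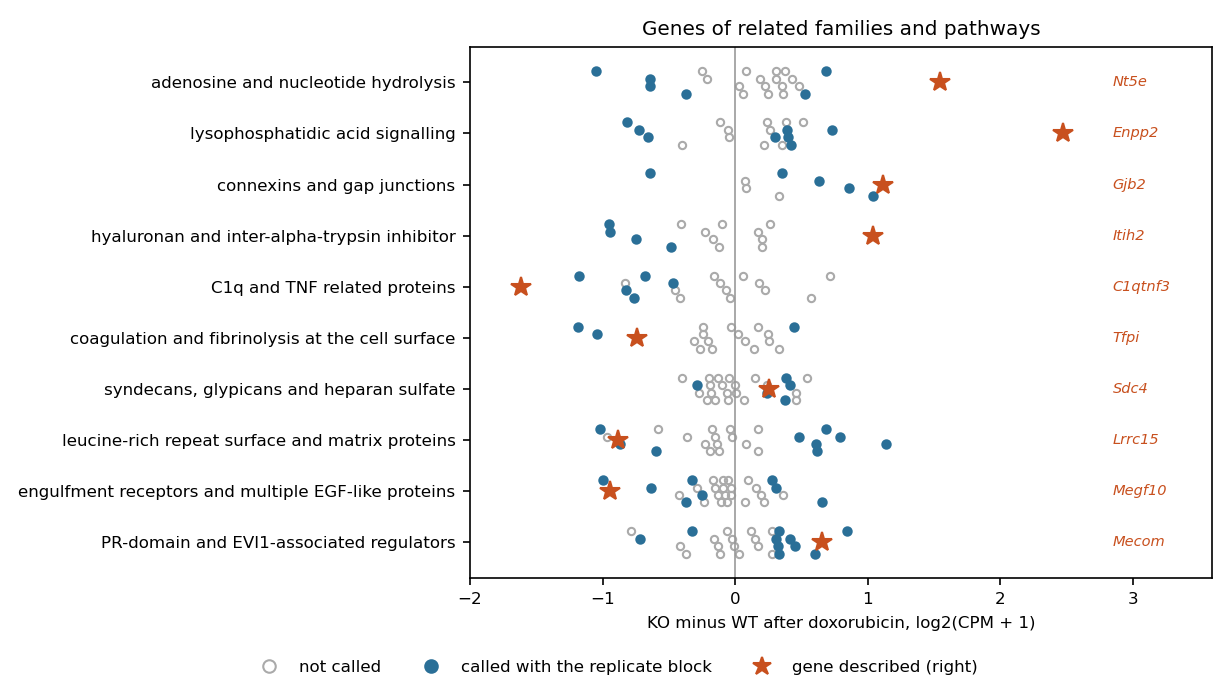
KO minus WT after doxorubicin on the log2(CPM + 1) scale for the genes of each list, filled where called with the replicate block, with a star for the described gene that the list was drawn around. The star of ENPP2 at 2.48 lies outside the range of its list, and that of SDC4 at 0.26 lies within it.

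Summed levels of cell type markers were set beside these differences. Of all genes, 7094 of 10648 in mock and 6034 of 11125 after doxorubicin were above WT. Smooth muscle markers were below WT for 9 of 10 genes in mock, with sums of 9574 to 14628 CPM in WT libraries and 7658 to 11279 CPM in KO, and for 8 of 10 after doxorubicin (3330 to 8538 and 3414 to 5691 CPM). Adipocyte markers, 3 of 8 listed after doxorubicin and all below WT, summed to 98.5 to 168 CPM in WT libraries and 49.5 to 77.1 CPM in KO, which do not overlap. Endothelial markers, 4 of 12 listed after doxorubicin and all below WT, summed to 224 to 240 CPM in WT libraries and 162 to 203 CPM in KO. ADIPOQ, PLIN1 and CDH5 were not listed. In mock 2 of 4 adipocyte and 3 of 4 endothelial markers were below WT, and the sums of both lists overlapped between genotypes. Fibroblast markers were below WT for 9 of 11 genes in mock (57868 to 69406 CPM in WT against 48722 to 63591 CPM in KO) and for 5 of 11 after doxorubicin. Cartilage and bone markers were above WT for 4 of 5 in mock (275 to 722 against 461 to 645 CPM) and 4 of 6 after doxorubicin. Neural markers were above for 3 of 3 in mock and 1 of 3 after doxorubicin. All epithelial (3 and 4) and skeletal muscle (1 and 2) markers listed were below WT in both treatments, while CD68, the 1 macrophage and blood marker listed in mock, was above and both listed after doxorubicin were below. The summed ranges of these 6 lists overlapped between genotypes in both treatments. The part of these markers in the values of the described genes was not tested.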

How the data were processed

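RNA sequencing of 12 libraries was used. Per the labels, total RNA was made into stranded mRNA libraries. The build NCBIM37 and the tools edgeR, HTSeq and TopHat2 2.0.6 are listed per the submitters' processing notes, and the role of each is not given in the sources used here. The authors deposited CPM per gene in 2 tables, 1 per treatment. Values were whole multiples of 1 read for 100% of genes in every library (tolerance 0.001 reads), which gave the library totals. Columns were matched to samples by title.

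KO against WT was fitted within each table and doxorubicin against mock on all 12 libraries in 4 groups, with limma 3.58.1 in R 4.3.3 (eBayes with trend) on log2(CPM + 1), without a filter, and adjusted over all genes of the fit. Code was tested on simulated data. Alternatives were other pseudocounts, a filter at a mean of 5 CPM, quantile normalization, median centring, the replicate block and leaving out each library. Same-numbered libraries correlated across genes in all cases, also between treatments (0.394 to 0.728), so the numbers were taken to pair them; no label states what same-numbered libraries share, and p-values measure the spread between these samples. The variance estimate is shared with the contrast that picked the genes.

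The genes, lists, tests and alternatives were chosen with earlier results of these data known. From each list up to 4 genes called in KO against WT were named by size of difference, and for each described gene the 2 most like it. Some genes that this rule names are not reported here. List names were matched through RefSeq symbols and synonyms (GRCm38.p6), which were used for names only, apart from the promoters.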

Additional observations from a re-analysis of the deposited data

How the results depend on the processing

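Directions of KO against WT for the described genes held under all settings run except for LRRC15 in mock without WT mock replicate 1 (0.10; range -1.04 to 0.10 when 1 library was left out) and SDC4 after doxorubicin without WT doxorubicin replicate 1 (-0.0032; range -0.0032 to 0.50). No average response to doxorubicin changed sign. The number of described genes passing for doxorubicin against mock was 4, became 7 with the replicate block, and ran from 3 to 5 when 1 library was left out; over all genes the count of 5977 became 7289 with the block and ran from 5466 to 5964. For KO against WT the count of 0 called genes became 98 in mock and 2820 after doxorubicin with the replicate block. Blocked fits without 1 pair, added after the data were seen, called 4, 0 and 2438 genes in mock and 692, 2590 and 1560 after doxorubicin without pair 1, 2 and 3. With log2(CPM + 0.1) 1 gene was called after doxorubicin. Calls for MEGF10, SDC4 and TFPI held in every setting run, whereas C1QTNF3, GJB2, ITIH2, LRRC15 and MECOM were called in some settings and not in others. The causes were not tested. Every listed gene had over 2 CPM in all WT libraries, so genes at or under that level in a WT library and high in KO are not listed. ENPP2 has no mock value here, and why it was not listed in mock was not tested.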

Other observations

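Among genes related to TFPI, the largest responses to doxorubicin averaged over genotypes were those of PROCR and SERPINE2, singled out after their values were seen. PROCR rose from 23.3 ± 1.98 to 392 ± 204 CPM (SD, n = 6; log2 difference 3.82, limma adjusted p = 1.41e-06) and SERPINE2 from 136 ± 43.0 to 1275 ± 120 CPM (3.27, limma adjusted p = 1.78e-07). PLAU, the urokinase gene, rose by 1.54 and the thrombomodulin gene THBD by 1.27, whereas the thrombin receptor gene F2R fell by 1.27. Of 15 genes of that list 6 rose and 2 fell without the block. Over all 10 lists 47 of 171 genes rose and 44 fell, or 53.2%, where 58.1% of all genes were called.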
